A study of Mus musculus with 3 samples.

Results

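The galectin genes described here are Lgals1, Lgals3, Lgals8, Lgals9 and the gene of a galectin-binding protein, Lgals3bp, with all of their annotated transcripts. They are 5 of the 55536 annotated genes that the gene tables hold and 27 of the 141767 annotated transcripts that were quantified. They were selected on measured values: the choice was made with the levels of these libraries known, among them the levels of Lgals3 in 2 deposited quantifications of the same libraries, which were to be compared. The levels and ratios below are therefore descriptions and carry no test. Matching was by gene symbol and gene identifier, and all 5 genes were found once each.

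The RNA came from macrophages grown from bone marrow of C57BL/6J mice, primary cells that were given 100 ng/ml of lipid A for 15 min. Lipid A, the membrane anchor of bacterial endotoxin, is the ligand of the receptor TLR4. Total RNA of the chromatin fraction was sequenced after removal of ribosomal RNA. The series has 1 group of 3 libraries, called replicates 1, 2 and 3 after the biological replicate numbers in the labels, and all 3 libraries carry the lipid A treatment. The labels state no genetic change, and sex and age were not collected. Replicate 1 was made from 1 µg of RNA, replicate 3 from 500 ng and replicate 2 from 250 ng. The labels give a size range of 250 to 400 for all 3 libraries. The 3 libraries carry the same donor label and nothing states that they came from separate animals, so an SD here may understate how animals differ. No unstimulated library was analysed here, so a level at this time cannot be set against a resting level.

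Galectins are lectins that bind galactose-containing sugars on glycoproteins and glycolipids. They are made in the cytosol and leave the cell without a signal peptide, and macrophages are a main source of galectin-3, known from early work as the macrophage surface antigen Mac-2. The family is divided by the arrangement of the carbohydrate recognition domain. Galectin-1 has a single domain and forms dimers, galectin-3 joins a single domain to a flexible tail, and galectin-8 and galectin-9 carry a pair of different domains joined by a linker. Lgals3bp encodes a secreted glycoprotein with a scavenger receptor cysteine-rich domain that galectins bind through its sugars. RNA on chromatin includes transcripts that are still being made or spliced, so intron sequence is a normal part of it. Reads from RNA not yet spliced and reads from annotated forms that hold intron sequence were not told apart here.

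The 3 gene tables held 10974934 to 21376404 expected counts per library, and the second quantification held 17273471 to 36846229 estimated counts. Macrophage identity was checked on markers: 8 of 8 macrophage markers, among them Csf1r and Adgre1, had at least 1 TPM (transcripts per 1000000) in all 3 libraries of the gene table. None of the 5 neutrophil, 3 T cell, 3 B cell, 3 mast cell or 3 fibroblast markers did so, and Elane, Cd3e, Cd3g and Mcpt4 were listed at 0 counts. In the second quantification 1 of 3 T cell markers and 1 of 3 fibroblast markers did: Cd3d was at 16.7, 11.5 and 20.2 TPM, against 0, 0.02 and 0 TPM in the gene table, and Col1a1 at 1.62, 1.17 and 1.74 TPM, against 0, 0.26 and 0.21 TPM. Of the remaining T cell markers, Cd3g was at 1.31, 0.891 and 1.65 TPM there, against 0 TPM in the gene table. Cd3e stayed at 0.0946 to 0.14 TPM. Replicate 2, the deepest library, was lower than the others in TPM over most genes: the median protein-coding gene with a mean of at least 1 TPM lay at -0.36 from its own mean on the log2 scale in replicate 2, at 0.11 in replicate 1 and at 0.26 in replicate 3. Protein-coding genes held 44.5%, 26.0% and 41.5% of all TPM in replicates 1, 2 and 3 of the second quantification, against 23.9%, 16.7% and 25.3% in the gene table. TPM sums to a fixed total over all features of a table, so values rescaled to protein-coding genes alone are also given.

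All 5 genes were read in every library, and they covered a wide range of levels. In the second quantification Lgals3 averaged 1977 ± 618 TPM, Lgals8 213 ± 73.1 TPM, Lgals3bp 42.2 ± 7.82 TPM, Lgals1 34.3 ± 7.73 TPM and Lgals9 34.1 ± 12.8 TPM (SD, n = 3 each). In the gene table Lgals3 averaged 180 ± 41.2 TPM, Lgals8 99.6 ± 27.7 TPM, Lgals3bp 29.3 ± 4.84 TPM, Lgals9 16.9 ± 6.26 TPM and Lgals1 10.6 ± 2.62 TPM (SD, n = 3 each). Both quantifications put the genes of galectin-3 and galectin-8 first. In bulk RNA such as this, a lower value may come from fewer cells that make a transcript or from less of it per cell, and these cannot be told apart.

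The order of the genes was the same in both quantifications only at its upper end. In the second quantification the ranges of Lgals3 and Lgals8 over the 3 libraries did not overlap, and neither did those of Lgals8 and Lgals3bp. The ranges of Lgals3bp and Lgals1 overlapped there, and Lgals1 exceeded Lgals9 in only 2 of 3 libraries. In the gene table the order was the same in all 3 libraries, and only the ranges of the lowest pair, Lgals9 and Lgals1, overlapped. The ratio of Lgals3 to Lgals8 was 7.85 to 10.5 over the libraries of the second quantification, against 1.45 to 2.21 in the gene table.

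**Figure D1:**
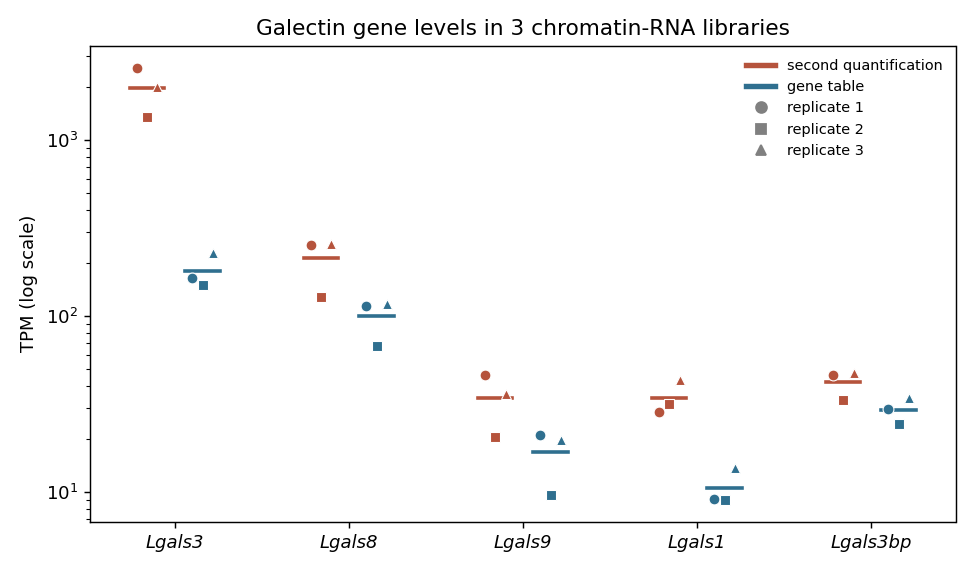
TPM of each galectin gene (log scale) in the second quantification, to the left of each pair, and in the gene table, to the right; points are replicates 1, 2 and 3 and bars are means. Lgals3 lies between 1344 and 2578 TPM in the second quantification, against 149 to 227 TPM in the gene table, while Lgals3bp lies between 33.2 and 47.3 TPM, against 24.3 to 34.0 TPM.

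Lgals1, the gene of the single-domain galectin-1, lies on the forward strand at chr15:78926725-78930465 (mm10, as are all positions below). It has a coding transcript, Lgals1-201, of 800 bases, and a transcript annotated as a target of nonsense-mediated decay, Lgals1-202, of 628 bases. The decay form differs by an exon of 103 bases, chr15:78928565-78928667, that lies inside an intron of Lgals1-201. Its reading frame is shown because the exon ends it: the capitals mark the 19 bases read from the extra exon, and the final 3 are the stop codon.

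Lgals1-202 reading frame: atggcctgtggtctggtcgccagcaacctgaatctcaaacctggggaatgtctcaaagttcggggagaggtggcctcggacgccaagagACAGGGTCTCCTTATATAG

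The frame of Lgals1-202 has 35 codons before the stop, against 135 in Lgals1-201. The extra exon is the part of Lgals1-202 that Lgals1-201 lacks, 103 bases in all, while Lgals1-201 has 275 bases of its own. Reads over that exon may also come from RNA not yet spliced, which was not tested.

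Lgals1 had 28.4, 31.5 and 43.1 TPM in replicates 1, 2 and 3 of the second quantification, with gene table values of 9.18, 9.0 and 13.6 TPM. The second quantification was thus 3.09, 3.50 and 3.16 times higher. Replicate 3 was the highest library in both, and the 2 quantifications did not overlap. Rescaled to protein-coding genes, Lgals1 stood at 63.7, 121 and 104 TPM in the second quantification, against 38.4, 54.0 and 53.8 TPM in the gene table, and replicate 2 was then the highest library, though by little in the gene table. The values rest on 232 to 696 estimated counts, against 73 to 151 expected counts in the gene table, the fewest of the 5 genes.

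The 2 quantifications divided Lgals1 differently between its transcripts. Lgals1-202 held 50.3%, 50.8% and 53.7% of the gene's TPM in replicates 1, 2 and 3 of the second quantification, against 6.70%, 16.7% and 9.37% in the first transcript table. Lgals1-202 was at 14.3, 16.0 and 23.1 TPM in the second quantification, against 0.62, 1.51 and 1.28 TPM in the first transcript table. That table also gives bounds for each TPM, whose confidence level the file headers do not state. The upper bounds for Lgals1-202 were 2.33, 2.55 and 3.41 TPM. The coding form Lgals1-201 was also higher in the second quantification, at 16.5 ± 3.04 TPM, against 9.47 ± 2.55 TPM in the first transcript table (SD, n = 3 each). The decay form was thus the one that differed more. In TPM it led in all 3 libraries of the second quantification. Its lead was small in replicates 1 and 2, where Lgals1-201 was at 14.1 and 15.5 TPM. The coding form led in TPM in all 3 libraries of the first transcript table. In counts of the second quantification the coding form also led, with 58.0%, 57.5% and 54.8% of the gene, against 42.0%, 42.5% and 45.2% for Lgals1-202.

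Lgals3, the gene of the chimera-type galectin-3, lies on the forward strand at chr14:47367751-47386160. It has 6 annotated transcripts, all labelled protein-coding. Lgals3-201, of 1419 bases and 6 exons, is the reference form here. Lgals3-203, of 1072 bases, begins with an exon of 159 bases at chr14:47373964-47374122 that lies wholly inside the first intron of Lgals3-201. Lgals3-206 has 3 short exons of 64, 66 and 80 bases, 210 bases in all, of which 98 are coding, and every one of its bases also belongs to another Lgals3 transcript. Its annotation stops inside the coding region. The size range in the labels is 250 to 400, and its bearing on Lgals3-206 was not tested.

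Lgals3 showed the largest gap in TPM between the quantifications among the 5 genes. It had 2578, 1344 and 2008 TPM in replicates 1, 2 and 3 of the second quantification, with gene table values of 165, 149 and 227 TPM. The second quantification was 15.6, 9.01 and 8.84 times higher. In mean TPM, Lgals3 ranked number 1 of the protein-coding genes in the second quantification, against number 121 in the gene table. The gap in counts was smaller, with 7613, 12694 and 10091 estimated counts in the second quantification against 2196, 4238 and 3378 expected counts in the gene table, which is 3.47, 3.00 and 2.99 times as many. In counts Lgals1 had the larger gap, with a mean ratio of 3.95 ± 0.721, against 3.15 ± 0.275 for Lgals3 (SD, n = 3 each). Over all features the second quantification held 1.57, 1.72 and 1.71 times the counts of the gene table in replicates 1, 2 and 3.

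The shortest Lgals3 transcript held most of the gene's TPM in the second quantification. Lgals3-206 was at 2203, 1085 and 1604 TPM in replicates 1, 2 and 3 of the second quantification, against 10.4, 0.09 and 0 TPM in the first transcript table, whose upper bounds were 23.1, 11.1 and 11.3 TPM. Lgals3-206 made up 85.5%, 80.7% and 79.9% of the gene's TPM in the second quantification, but 27.8%, 23.5% and 22.1% of its counts. The counts themselves differed too. Lgals3-206 had 2119, 2980 and 2225 estimated counts there, against 5.18, 0.08 and 0 expected counts in the first transcript table. TPM divides counts by an effective length, the number of positions at which a fragment can start. The effective length of Lgals3-206 was 61.0, 64.4 and 63.6 bases in the second quantification, against 36.5, 26.1 and 24.3 bases in the first transcript table, while that of Lgals3-201 was 1218 ± 9.94 bases, against 1189 ± 22.8 bases (SD, n = 3 each). In replicate 1 of the second quantification a single count was therefore worth 1.04 TPM on Lgals3-206 and 0.0519 TPM on Lgals3-201.

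Taken without Lgals3-206, the gene had 375, 259 and 405 TPM in replicates 1, 2 and 3 of the second quantification, against 154, 149 and 227 TPM in the first transcript table, or 2.43, 1.74 and 1.78 times as much. On the log2 scale the mean TPM ratio without Lgals3-206 was 0.97. That was below the 1.70 of Lgals1, the 1.07 of Lgals8 and the 1.02 of Lgals9, and above the 0.52 of Lgals3bp. In counts the ratio without Lgals3-206 was 2.51, 2.29 and 2.33, against 1.57, 1.72 and 1.71 for all features. This exclusion was chosen after the values were seen. A short transcript that dominates its gene was rare but not limited to Lgals3: a transcript under 300 bases held more than 50% of the gene's TPM in all 3 libraries for 49 of 9567 protein-coding genes in the second quantification (0.512%), against 2 genes in the first transcript table (0.0209%).

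**Figure D2:**
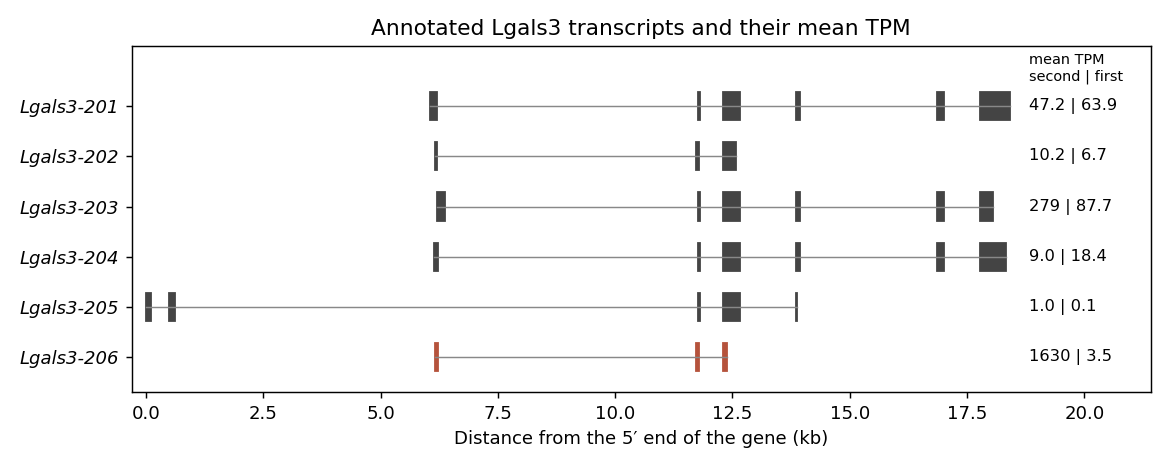
The 6 annotated Lgals3 transcripts drawn by distance from the 5′ end of the gene in kb, with boxes for exons and lines for introns, and the mean TPM of each over 3 libraries in the second quantification and then in the first transcript table. Lgals3-206, in red, averages 1630 TPM in the second quantification, against 3.51 TPM in the first transcript table, on 3 exons that together span 210 bases.

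The other Lgals3 transcripts also shifted between replicates. Lgals3-203, which starts inside the first intron of Lgals3-201, had 292, 222 and 323 TPM in replicates 1, 2 and 3 of the second quantification, against 56.7, 82.4 and 124 TPM in the first transcript table. It took the largest share of the gene's counts in the second quantification, 52.9%, 65.4% and 60.1%, against 30.5%, 51.2% and 47.6% in the first transcript table. Lgals3-201 had 72.2, 16.8 and 52.7 TPM in the second quantification, against 89.7, 28.5 and 73.4 TPM in the first transcript table, and was lower in the second quantification in all 3 libraries. Replicate 2 was the lowest library for Lgals3-201 in both tables. Lgals3-204 had 2.77, 9.19 and 15.0 TPM in the second quantification, against 1.63, 28.8 and 24.9 TPM in the first transcript table, and replicate 1 was the lowest library in both. Lgals3-204 begins 76 bases downstream of Lgals3-201 and has no base that no other Lgals3 transcript holds. Lgals3-205, whose first exon lies at the 5′ end of the locus, stayed at 1.01 ± 0.524 TPM in the second quantification, against 0.14 ± 0.242 TPM in the first transcript table (SD, n = 3 each).

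Lgals8, the gene of the tandem-repeat galectin-8, lies on the reverse strand at chr13:12439415-12464944. Galectin-8 binds sugars exposed on broken endosomes and lysosomes and in human cells recruits the autophagy receptor NDP52, the product of CALCOCO2. The locus overlaps Heatr1, a gene on the opposite strand, by 875 bases. Whether counting used strand is not given in the sources used here; without strand, reads from the overlap cannot be told apart. Heatr1 was at 41.7, 25.9 and 43.3 TPM in the second quantification, with gene table values of 24.4, 21.6 and 31.2 TPM.

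Lgals8 had 254, 128 and 256 TPM in replicates 1, 2 and 3 of the second quantification, with gene table values of 114, 67.6 and 117 TPM. Replicate 2 was the lowest library in both. The second quantification was 2.23, 1.90 and 2.18 times higher, and the ranges of the 2 quantifications did not overlap. Rescaled to protein-coding genes, Lgals8 stood at 570, 492 and 616 TPM in the second quantification, against 477, 405 and 463 TPM in the gene table, and the 3 libraries lay closer together.

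Lgals8 has 10 annotated transcripts, and those that keep intron sequence took most of its TPM. The forms labelled as retained intron, Lgals8-204, Lgals8-205 and Lgals8-210, open with 229, 69 and 91 bases of intron before an acceptor site. The intron stretches of the most abundant pair are shown in the direction of transcription, with the acceptor AG in capitals. That of Lgals8-210 lies at chr13:12456433-12456523 and that of Lgals8-204 at chr13:12448508-12448736, both on the reverse strand.

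Lgals8-210 intron stretch: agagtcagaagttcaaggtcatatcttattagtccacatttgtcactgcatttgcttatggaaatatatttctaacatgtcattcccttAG
Lgals8-204 intron stretch: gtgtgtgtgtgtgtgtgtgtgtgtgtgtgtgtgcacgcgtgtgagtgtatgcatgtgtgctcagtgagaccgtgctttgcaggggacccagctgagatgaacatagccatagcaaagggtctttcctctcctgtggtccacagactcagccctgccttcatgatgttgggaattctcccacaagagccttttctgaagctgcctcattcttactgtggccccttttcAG

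The stretch of Lgals8-204 opens with a run of 33 bases of alternating G and T, a simple repeat, and has a GC content of 52.4%. That of Lgals8-210 is richer in A and T, with a GC content of 34.1%, and holds no such run. The retained-intron transcripts together held 59.8%, 60.2% and 58.5% of the gene's TPM in replicates 1, 2 and 3 of the second quantification, against 63.5%, 53.2% and 64.7% in the first transcript table. The total share was alike in both, but its division was not. In TPM Lgals8-210 led in the second quantification with 103, 48.2 and 95.8 TPM, against 23.6, 9.52 and 19.1 TPM in the first transcript table. Lgals8-204 was close in both, with 39.2, 21.9 and 38.9 TPM in the second quantification, against 40.9, 21.5 and 45.5 TPM in the first transcript table. In counts of the second quantification Lgals8-204 led, with 34.5%, 38.0% and 36.4% of the gene, against 18.6%, 17.2% and 17.9% for Lgals8-210.

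The share of Lgals8 on retained introns was above the middle of the genes that have such transcripts. Over 6506 protein-coding genes with a retained-intron transcript and a mean of at least 1 TPM, the median share was 45.5% in the second quantification, against 47.6% in the first transcript table. Of these genes 71.3% had a lower share than Lgals8 in each table. Among the remaining Lgals8 forms, the coding transcript Lgals8-201 was at 15.9 ± 7.05 TPM in the second quantification, against 14.1 ± 6.68 TPM in the first transcript table (SD, n = 3 each). Lgals8-209, a non-coding form of 289 bases, was at 42.8 ± 19.0 TPM, against 9.56 ± 1.25 TPM in the first transcript table (SD, n = 3 each). Lgals8-208, a coding form of 1148 bases, was at 24.6 ± 4.82 TPM, against 6.90 ± 0.654 TPM (SD, n = 3 each). Lgals8-206 was present in replicate 2 alone, at 0.388 TPM in the second quantification, against 8.66 TPM in the first transcript table. Lgals8-202, Lgals8-203 and Lgals8-207 stayed under 4 TPM in every library of both tables.

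Lgals9, the gene of the tandem-repeat galectin-9, lies on the reverse strand at chr11:78962974-78984946. Galectin-9 is known as a ligand of the inhibitory receptor TIM-3, encoded by Havcr2. Its annotated coding forms differ in an exon that encodes part of the linker between the carbohydrate recognition domains, chr11:78969714-78969806 on the reverse strand. Lgals9-203 contains this exon of 93 bases, which adds 31 codons, and Lgals9-202 lacks it. The forms also differ elsewhere. Lgals9-202 has 27 bases that no other annotated Lgals9 transcript holds, and Lgals9-201 has 1074 bases, against 1586 for Lgals9-203. Lgals9-201 uses an acceptor 3 bases further on, and the capitals mark the bases it leaves out.

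Lgals9 linker exon: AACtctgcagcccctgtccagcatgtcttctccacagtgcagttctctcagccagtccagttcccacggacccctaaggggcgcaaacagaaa

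Lgals9 had 46.0, 20.6 and 35.9 TPM in replicates 1, 2 and 3 of the second quantification, with gene table values of 21.1, 9.67 and 19.8 TPM. Replicate 2 was the lowest library in both, and the ranges of the 2 quantifications overlapped. Within each library the second quantification was 2.18, 2.13 and 1.81 times higher. Rescaled to protein-coding genes, Lgals9 stood at 103, 79.0 and 86.4 TPM in the second quantification, against 88.3, 58.0 and 78.3 TPM in the gene table, and replicate 2 was still the lowest library. Expected counts divided by DESeq2 size factors were 324, 286 and 284, so replicates 2 and 3 hardly differed on that scale.

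Both quantifications favoured Lgals9-202, the form without the linker exon. Whether its share rests on that exon or on other differences between the forms was not tested. Lgals9-202 held 58.5%, 57.3% and 51.0% of the gene's TPM in replicates 1, 2 and 3 of the second quantification, against 54.0%, 59.4% and 52.5% in the first transcript table. The longer Lgals9-203 held 0%, 1.57% and 1.07%, against 0%, 13.2% and 4.14%. Lgals9-201 held 0%, 5.78% and 5.92% in the second quantification and was listed at 0 in all 3 libraries of the first transcript table. The remainder was on Lgals9-204, a retained-intron form of 742 bases with 524 bases of intron. It held 41.5%, 35.4% and 42.0% of the gene's TPM in the second quantification, against 46.0%, 27.4% and 43.4% in the first transcript table. In counts its share was smaller, 22.6%, 18.9% and 23.3% in the second quantification, against 25.8%, 12.8% and 22.9% in the first transcript table. A TPM share as high was common: 41.0% of the 6506 genes had a lower retained-intron share than Lgals9 in the second quantification, against 36.5% in the first transcript table.

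Lgals3bp, the gene of the secreted binding partner, lies on the reverse strand at chr11:118392751-118402092. It has 5 annotated transcripts. The full-length coding form Lgals3bp-201, of 2330 bases, has 5 introns. Lgals3bp-204, labelled as a processed transcript without a reading frame, keeps the third of these, 127 bases at chr11:118398253-118398379 on the reverse strand. The kept intron is shown because it holds the bases that no other annotated Lgals3bp transcript has, with the donor GT and the acceptor AG in capitals. Reads over it may also come from RNA not yet spliced, which was not tested.

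Lgals3bp-204 kept intron: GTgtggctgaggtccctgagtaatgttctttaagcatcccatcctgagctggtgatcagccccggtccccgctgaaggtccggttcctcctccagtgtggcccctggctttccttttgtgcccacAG

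Lgals3bp had 46.1, 33.2 and 47.3 TPM in replicates 1, 2 and 3 of the second quantification, with gene table values of 29.6, 24.3 and 34.0 TPM. The ratio of 1.56, 1.36 and 1.39 was the smallest among the 5 genes, and the ranges of the 2 quantifications overlapped. Replicate 2 was the lowest library in both. Rescaled to protein-coding genes, the direction turned: Lgals3bp stood at 103, 127 and 114 TPM in the second quantification, against 124, 146 and 134 TPM in the gene table.

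Most counts of Lgals3bp fell on the full-length form, but shorter forms took much of its TPM. Lgals3bp-201 held 72.0%, 67.1% and 76.2% of the gene's counts in replicates 1, 2 and 3 of the second quantification, against 77.4%, 81.6% and 85.5% in the first transcript table. In TPM its share was 27.2%, 27.6% and 31.4%, against 37.2%, 41.3% and 42.8%. Lgals3bp-203, of 335 bases with a first exon of 294 bases inside an intron of Lgals3bp-201, held 40.3%, 21.4% and 36.8% of the TPM in the second quantification, against 19.8%, 16.7% and 28.3% in the first transcript table. The intron-keeping Lgals3bp-204 held 19.9%, 34.8% and 23.6%, against 22.4%, 38.3% and 21.0%, and replicate 2 was the highest library in both tables. Lgals3bp-202 was at 4.63 ± 0.739 TPM in the second quantification, against 1.00 ± 0.347 TPM, and Lgals3bp-205 at 0.389 ± 0.673 TPM, against 2.22 ± 2.37 TPM in the first transcript table (SD, n = 3 each).

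**Figure D3:**
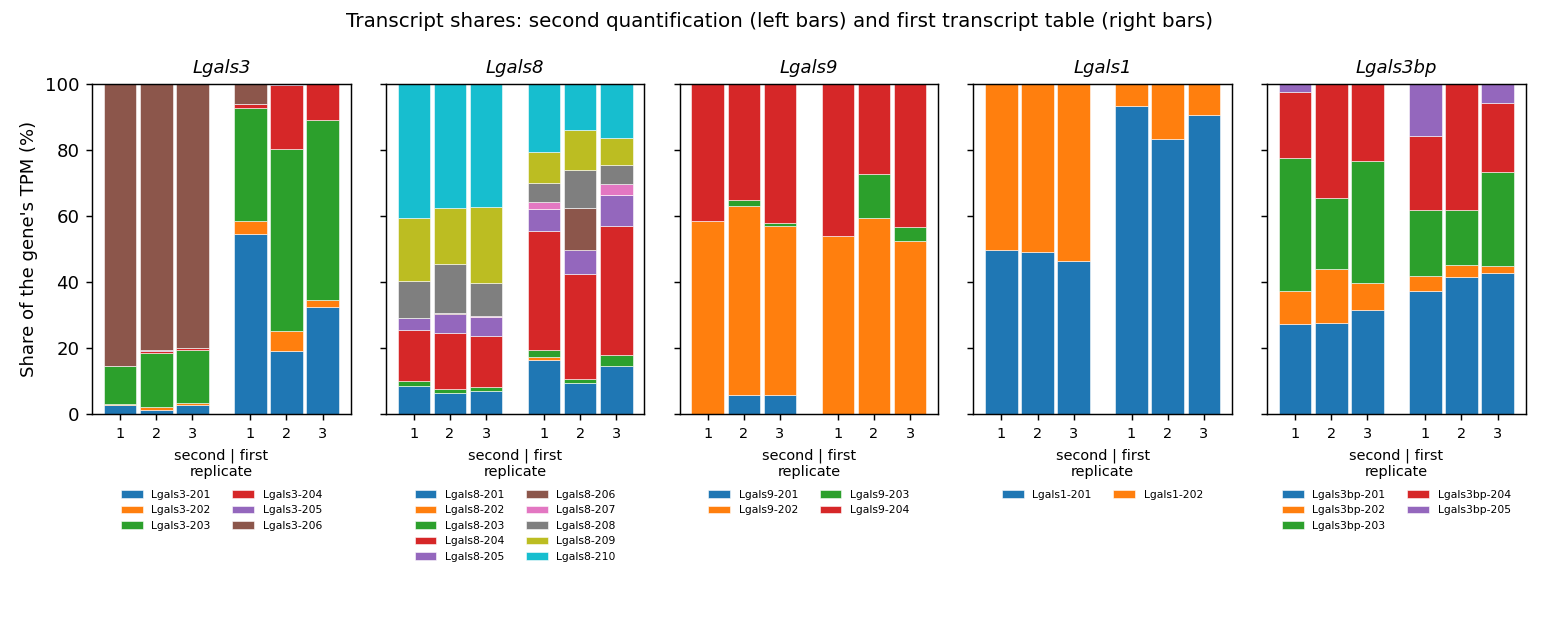
Share of each gene's TPM (%) held by each annotated transcript, 1 stacked bar per replicate; the left bars of each panel are the second quantification and the right bars the first transcript table. Lgals3-206 fills 79.9% to 85.5% of the Lgals3 bars at left, against at most 6.33% at right, and Lgals1-202 fills 50.3% to 53.7% at left, against 6.70% to 16.7% at right.

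Across the family, transcripts with at least 50 bases inside introns of the reference coding form took a share of the TPM that differed between the genes and the tables. This grouping, which counts transcripts of any label, was chosen after the values were seen and was not computed for other genes, with Lgals9-203 as the reference for Lgals9 and the form numbered 201 for the other genes. Their share was 96.6% ± 0.63 for Lgals3 in the second quantification, against 50.2% ± 8.22 in the first transcript table (SD, n = 3 each). For Lgals1 it was 51.6% ± 1.85, against 11.0% ± 5.20 (SD, n = 3 each). It was 79.1% ± 2.08 for Lgals8, against 70.4% ± 4.45, and 70.4% ± 1.89 for Lgals3bp, against 52.4% ± 5.94 (SD, n = 3 each). Lgals9 had nearly the same share in both, 39.6% ± 3.69 in the second quantification, against 38.9% ± 10.1 in the first transcript table (SD, n = 3 each). No transcript of Lgals3, Lgals1 or Lgals3bp is labelled as retained intron. The Lgals3 share came from Lgals3-203 and Lgals3-206, with 159 and 71 bases inside those introns. Reads from RNA not yet spliced were not told apart from reads of transcripts that hold intron sequence. In counts, which are not divided by length, the shares were lower for all 5 genes in both tables: 83.9% for Lgals3 in the second quantification, against 43.1% in the first transcript table, 58.6% against 54.8% for Lgals8, 43.2% against 7.92% for Lgals1, 27.7% against 15.2% for Lgals3bp and 21.6% against 20.5% for Lgals9 (means, n = 3 each).

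**Figure D4:**
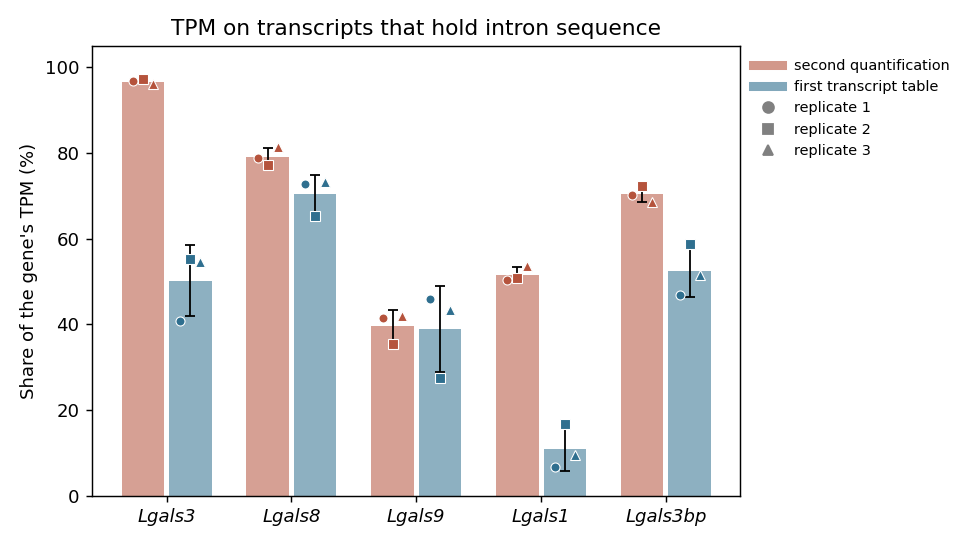
Share of each gene's TPM (%) on transcripts with at least 50 bases inside introns of the reference coding form; bars are means, error bars are SD over 3 libraries and points are replicates, with the second quantification at left and the first transcript table at right of each pair. The share is 96.6% for Lgals3 at left, against 50.2% at right, and 39.6% for Lgals9, against 38.9%. No Lgals3 transcript is labelled as retained intron.

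A higher value in the second quantification was common in these libraries. Among 10251 protein-coding genes with a mean of at least 1 TPM in the gene table, 2057 were at least 2 times higher in the second quantification in all 3 libraries, which is 20.1%. Of the 5 galectin genes 2 were past that fold in all 3 libraries, Lgals3 and Lgals1. Leaving out replicate 2, Lgals8 was past it too, with 2.23 and 2.18 in the other libraries, and leaving out replicate 3, Lgals9 was, with 2.18 and 2.13. The share over all genes also rose: 2680 of 10429 (25.7%) were past it without replicate 2 and 2204 of 10040 (22.0%) without replicate 3. Only 7 of the 10251 genes, or 0.0683%, were at most 1/2 as high in all 3 libraries, and no galectin gene was among them. The median log2 ratio was 1.07 over the 5 galectin genes and 0.68 over the 10251 genes. Lgals3 stood at 3.43 ± 0.47 on that log2 scale (SD, n = 3), number 50 of the 10251 genes from the highest, and Lgals1 at 1.70 ± 0.09 (SD, n = 3), number 873. Lgals8, at 1.07 ± 0.13, and Lgals9, at 1.02 ± 0.14, had 26.4% and 28.2% of genes above them (SD, n = 3 each). Lgals3bp, at 0.52 ± 0.10 (SD, n = 3), had 61.9% of genes above it.

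The ratio depends on the scale. With both tables rescaled to protein-coding genes, the median log2 ratio was 0.32 over the 5 galectin genes and -0.08 over all 10251 genes. On that scale 499 genes, or 4.87%, were at least 2 times higher in all 3 libraries, and Lgals3 was the only galectin gene among them, at 2.68 ± 0.34 (SD, n = 3). Lgals1 stood at 0.95 ± 0.22, Lgals8 at 0.32 ± 0.08, Lgals9 at 0.27 ± 0.16 and Lgals3bp at -0.23 ± 0.03 (SD, n = 3 each).

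**Figure D5:**
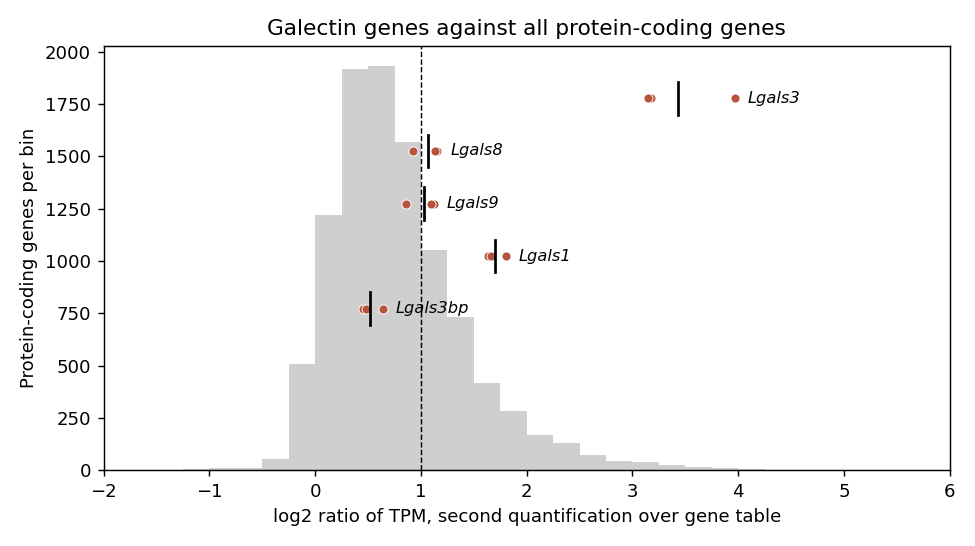
Log2 ratio of TPM, second quantification over gene table, with grey bars for the number of protein-coding genes per bin (10251 genes, 25 of them without a finite ratio or outside the axis) and points for the 3 replicates of each galectin gene, their mean as a black tick and the 2-fold line dashed; the height of the points has no meaning. Lgals3, at a mean of 3.43, lies in the right tail, and Lgals3bp, at 0.52, lies near the middle.

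The spread of the galectin genes between libraries lay on both sides of that of other genes of their level. On log2(TPM + 1) in the gene table, which understates differences of low genes, the SD was 0.31 for Lgals1, 0.31 for Lgals3, 0.44 for Lgals8, 0.58 for Lgals9 and 0.23 for Lgals3bp (n = 3 each). The 200 protein-coding genes nearest to each in level had a median SD of 0.36 to 0.39. Of those genes 82.5% varied less than Lgals9 and 16.5% varied less than Lgals3bp. Rescaled to protein-coding genes, the SD was 0.12 for Lgals8 and for Lgals3bp, 0.22 for Lgals3, 0.28 for Lgals1 and 0.31 for Lgals9 (n = 3 each). Lgals9 had the largest SD of the 5 genes on these scales, with replicate 2 lowest, but not on TMM-scaled CPM (counts per 1000000). There its SD was 0.11, against 0.26 for Lgals3bp, 0.25 for Lgals1, 0.24 for Lgals3 and 0.04 for Lgals8 (n = 3 each).

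Of the other genes with a galectin fold, Lgals4 alone was read at 1 TPM or more in all 3 libraries. Lgals4, the gene of a tandem-repeat galectin best known from gut epithelium, had 6.22, 6.28 and 8.0 TPM in replicates 1, 2 and 3 of the second quantification, against 6.45, 7.07 and 7.91 TPM in the gene table, on 62, 157 and 81 expected counts. Lgalsl, a galectin-related gene, averaged 0.739 ± 0.162 TPM, against 0.213 ± 0.155 TPM in the gene table (SD, n = 3 each). Lgals12, known from adipose tissue, averaged 0.669 TPM in the second quantification and had 3 counts in replicate 1 alone of the gene table. Grifin, a lens gene, Lgals7 and Lgals2 were listed at 0 counts in all 3 libraries of the gene table, and Lgals6, a close relative of Lgals4, was not matched by symbol. At these depths 3 counts on a transcript of 1 kb correspond to 0.0947 to 0.221 TPM, a limit that covers counting error only.

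Genes that galectins work with were broadly present. All 10 genes of receptors and binding partners were at 1 TPM or more in all 3 libraries of the gene table, with a median of 81.9 TPM in the second quantification, against 60.6 TPM in the gene table. Ptprc, the gene of the phosphatase CD45 and the highest of them, averaged 402 ± 202 TPM in the second quantification, against 316 ± 137 TPM in the gene table. Mertk, the gene of a receptor for dying cells, averaged 148 ± 26.4 TPM, against 110 ± 17.0 TPM. Slc3a2, the gene of the CD98 heavy chain, chosen after its values were seen, had a larger gap, at 311 ± 15.4 TPM, against 69.7 ± 9.56 TPM. The lowest were Itgam, the integrin alpha M gene, at 27.9 ± 3.89 TPM, against 15.4 ± 2.50 TPM, and Havcr2, the TIM-3 gene, at 4.86 ± 2.25 TPM, against 3.99 ± 1.84 TPM (SD, n = 3 each in this paragraph). In all, 9345 of 22028 protein-coding genes were at 1 TPM or more in all 3 libraries of the gene table, and 11703 in the second quantification.

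Genes of enzymes of glycan synthesis were also present, at lower levels. All 10 were at 1 TPM or more in all 3 libraries of the gene table, where 9345 of 22028 protein-coding genes were. In the second quantification 9 of the 10 were, with Mgat2 at 0.94 TPM in replicate 2. The median of the 10 genes was 22.6 TPM in the second quantification, against 13.1 TPM in the gene table. Mgat1, which starts the branching of N-glycans, was highest at 142 ± 56.1 TPM in the second quantification, against 50.7 ± 12.9 TPM. Mgat5, which adds the branch that galectin-3 binds well once it is extended, followed in the gene table at 33.1 ± 2.88 TPM, with 39.2 ± 1.46 TPM in the second quantification. The lowest were B4galt1, a galactosyltransferase gene, at 10.7 ± 4.0 TPM, against 6.45 ± 2.58 TPM, and Mgat2, at 1.71 ± 0.846 TPM, against 1.94 ± 1.12 TPM (SD, n = 3 each in this paragraph).

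In the response to damaged lysosomes, where galectin-3 and galectin-8 mark broken membranes, 7 of 8 genes were at 1 TPM or more in all 3 libraries of the gene table. Over all protein-coding genes 9345 of 22028 were. The median was 60.3 TPM in the second quantification, against 23.2 TPM in the gene table. Sqstm1, the gene of the autophagy receptor p62, was highest at 347 ± 161 TPM in the second quantification, against 181 ± 76.8 TPM. Tbk1, a kinase that acts on autophagy receptors, averaged 171 ± 52.0 TPM, against 94.7 ± 20.8 TPM. Trim16 was low, at 2.46 ± 0.939 TPM, against 2.34 ± 0.906 TPM (SD, n = 3 each in this paragraph). Calcoco2, the mouse gene of that symbol, averaged 0.0476 TPM in the second quantification and was listed at 0 counts in all 3 libraries of the gene table.

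The protein-coding genes whose 6 values lay nearest to those of each galectin gene were found by the distance between log2(TPM + 1) values of 3 libraries in both quantifications. Lgals3bp had close neighbours, Dnajc11, Ddx24 and Anks1, at distances of 0.07, 0.09 and 0.11. Lgals9 lay nearest to Nsmce2, Gtf2h1 and Vezt, at 0.28 to 0.31, Lgals8 to Osbpl9, Srek1 and Asph, at 0.33 to 0.38, and Lgals1 to Ssbp3, Gmeb2 and Ndufs7, at 0.35 to 0.38. Lgals3 had none close: the nearest, Arap1, Apobec1 and Sirpa, lay at 2.90, 3.01 and 3.09. This distance includes TPM of the second quantification, where Lgals3-206 held 79.9% to 85.5% of the gene. It is therefore not a trait separate from the gap described above. Arap1 averaged 772 ± 33.5 TPM in the second quantification, against 343 ± 72.0 TPM in the gene table (SD, n = 3 each), a gap much smaller than that of Lgals3.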

How the data were processed

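The members and the gene lists were chosen with earlier results of these data known. Per the file headers, the authors deposited for each library a gene table and a transcript table with TPM and with expected counts that can be fractional. In the first transcript table the authors also deposited, per the file headers, the percent of each gene's abundance per isoform, and lower and upper bounds of TPM. A further deposited transcript table holds estimated counts and TPM. The text deposited with the tables says that the first were derived from transcriptome alignments and the further one, called the second quantification, directly from the reads. Both read the same libraries, so they are not replicates of each other. Reads were placed on mm10 with GENCODE M21 genes, per the same text. For the aligner, the counting programs and the use of strand, a name or setting is not given in the sources used here.

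Second-quantification values were summed over the transcripts of a gene. Exons, introns, transcript labels and sequences came from GENCODE M21 (mm10). Ratios used TPM without a pseudocount, for protein-coding genes with a mean of at least 1 TPM in the gene table. Of these 10251 genes, 10 had no second value and were not called. A call needed a fold of 2 in all 3 libraries. With 1 group there was no comparison between groups, and no p-value was computed. The rule for named genes took the 5 members with all transcripts, the other galectin-fold genes, the 2 highest and 2 lowest of each of 3 lists by mean TPM in the gene table, and the 3 nearest genes. TMM factors came from edgeR 4.0.16 and size factors from DESeq2 1.42.0 (R 4.3.3), both on expected counts rounded to whole numbers. The remaining steps ran in Python 3.11.15 with numpy 2.4.6 and pandas 2.3.3. Only the fold call and the TMM factors were tested on simulated data. Alternatives were other scalings, pseudocounts and filters, counts in place of TPM, and leaving out each library.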

Additional observations from a re-analysis of the deposited data

How the results depend on the processing

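No paired analysis was possible because the labels give 1 group. Medians over the 5 genes are given first. Their level, 29.3 TPM in the gene table, was 42.2 TPM in the second quantification, 135 TPM scaled to protein-coding genes, 38.8 CPM with TMM factors and 578 counts with DESeq2 size factors. Without each library in turn it was 27.0 to 31.8 TPM. The log2 ratio of 1.07 was 1.40 in counts, 0.32 scaled to protein-coding genes and 1.02 without Lgals3-206, an alternative chosen after seeing the data, and 1.02 to 1.14 without each library. The single reversal was Lgals3bp, whose log2 ratio was -0.23 scaled to protein-coding genes; the rescaling itself lowers every ratio. The 2057 genes at least 2 times higher were 4411 of 15306 with no filter and 1068 of 6879 with a mean TPM of at least 5. They were 499 scaled to protein-coding genes and 2129 to 2680 without each library. Without replicate 2 or replicate 3, 3 of 5 galectin genes were past the fold, against 25.7% and 22.0% of all tested genes. The retained-intron share of Lgals8 and Lgals9, a median of 49.7%, was 37.3% in expected counts, with Lgals9 at 20.5%, against 38.9% in TPM, and Lgals8 at 54.2%, against 60.5%; the cause was not tested. The spread, a median SD of 0.31, was 0.22 scaled to protein-coding genes and 0.24 on TMM-scaled CPM, where Lgals9 was at 0.11, against 0.58 on log2(TPM + 1). Of 35 alternatives to these summaries, 21 stayed within the spread between libraries or within 1.5 times a count. The median levels in other units were among those that moved, so this count does not measure how stable the levels are. Lgals1 rests on the fewest counts. With 3 libraries, no sample could be tested as an outlier.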
